A study of Mus musculus with 6 samples.

Results

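The cell-surface mucins are described here as a group of 6 genes, Muc1, Muc4, Muc13, Muc15, Muc16 and Muc20, taken as a family by name. They were read from a set of arrays that measured mRNA in cultured mammary stem cells of the mouse, grown as organoids, small 3-dimensional epithelial cultures. A gene was given a value where a probe set carried its symbol alone, and the probe set with the highest mean over all arrays stood for the gene. This gave a value to 5 of the 6 members, out of 22180 genes with a value in all. Each of the 5 was read by 1 probe set. Muc20 shares its only listed probe set with its neighbour Muc4, so no value is given for Muc20. The members were chosen by family, selected on the measured difference of Muc1 between the groups, which was already known, and the question put to the data was whether the other mucins showed it too. The difference of Muc1 is therefore a description and supports nothing on its own.

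The 3 WT and the 3 Mll3-null arrays are labelled biological replicates of cultured wild-type cells and of cells lacking MLL3, the histone H3 lysine 4 methyltransferase encoded by Kmt2c. The Mll3-null cells come from stem cell lines edited with CRISPR. The labels name no strain, age, guide or clone and do not tie a replicate to a line or a culture, so p-values measure only the spread between these samples, which may be technical.

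Mucins are large glycoproteins whose serine- and threonine-rich stretches carry dense O-linked sugar chains. The cell-surface members are anchored by a membrane-spanning segment and form part of the sugar coat on the apical face of epithelial cells, and several can be cut from the surface by proteases. In the mammary gland, Muc1 lines the lumen and, like Muc15, is found in the membrane that surrounds secreted milk fat globules.

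The start of Muc1, the member with the widest difference, is shown with that of Muc4, whose groups overlapped, as the 250 bases that lead up to the annotated start (RefSeq, GRCm38.p6). The Muc1 stretch is chr3:89228806-89229055 and the Muc4 stretch chr16:32735636-32735885, both on the plus strand and written 5′ to 3′ up to the base before the start. Capitals mark matches to 5 motifs searched on both strands.
Muc1: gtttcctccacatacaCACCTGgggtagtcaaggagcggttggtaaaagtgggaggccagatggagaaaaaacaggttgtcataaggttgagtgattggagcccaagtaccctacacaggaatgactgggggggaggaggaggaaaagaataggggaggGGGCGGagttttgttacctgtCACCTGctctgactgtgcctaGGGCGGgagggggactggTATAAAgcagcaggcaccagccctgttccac
Muc4: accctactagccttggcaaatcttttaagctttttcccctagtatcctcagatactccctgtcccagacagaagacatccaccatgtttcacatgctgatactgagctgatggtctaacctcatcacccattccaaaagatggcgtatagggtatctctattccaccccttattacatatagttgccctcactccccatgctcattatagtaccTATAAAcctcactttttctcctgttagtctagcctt
In the Muc1 stretch GGGCGG, the GC box, occurs 2 times, beginning 91 and 49 bases before the start, and TATAAA, the TATA box, once, beginning 31 bases before it. CACCTG, a form of E-box, occurs 2 times, beginning 234 and 70 bases before it. The Muc4 stretch holds TATAAA once, beginning 36 bases before the start, and no match to the others. Over the 32851 starts in the table, windows of the same length held GGGCGG in 32.7%, TATAAA in 12.4% and CACCTG in 17.2% of cases. ACGTG, the core of the hypoxia response element, was in 16.6% and TTCNNNGAA, a STAT site, in 7.02%, and neither was in the Muc1 or Muc4 window. No match in the Muc1 window overlapped another. These motifs were picked with the sequence in view, and a match is a run of letters, not a binding site. Of the other members, Muc13, Muc16 and Muc20 had an entry in the table and Muc15 had none. The Muc20 window held CACCTG once, beginning 66 bases before the start. A Muc13 window held TTCNNNGAA once, beginning 140 bases before its start. Muc13, Muc16 and Muc20 had no other match.

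The arrays as a whole set limits on what follows. All values are on the log2 scale, 1 value per probe set and array, with array medians between 4.35 and 4.40. Mll3-null replicate 3 stood apart from the rest, with 294 genes more than 1 log2 unit below and 123 more than 1 above all other arrays, against 1 to 24 below and 9 to 33 above for the others. Kmt2c itself lay between 5.58 and 6.63 in WT and between 5.84 and 6.42 in Mll3-null arrays, and since the position of its probe set relative to the edited part is not known here, it does not check the labels. Limma, a linear model fitted to all 22180 genes with Benjamini-Hochberg adjustment, called 0 genes between the groups at an adjusted p under 0.05 (0% of genes), while 1093 genes (4.93%) had an unadjusted p under 0.05. None of the mucins was called. In 5.44% of all genes every Mll3-null array lay above every WT array, and in 5.31% every one lay below.

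**Figure D1:**
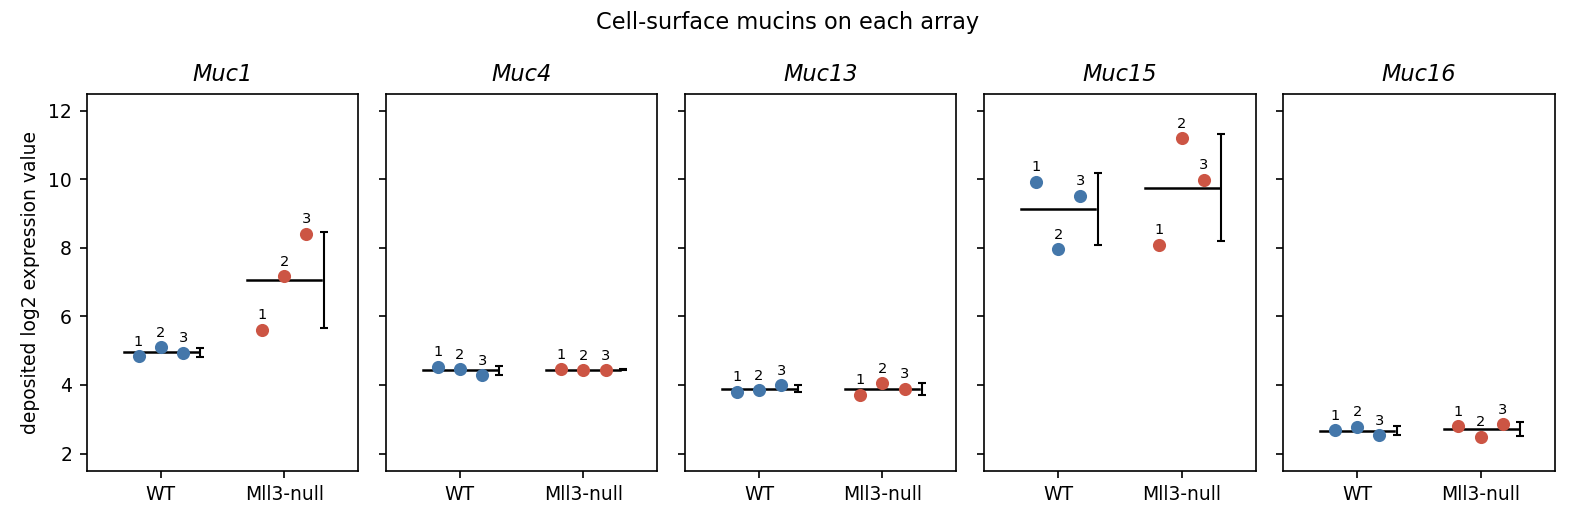
Deposited log2 expression values (vertical axis) of the 5 measured cell-surface mucins in the 3 WT and 3 Mll3-null arrays. Each point is an array, numbered by its replicate, horizontal lines are group means and vertical bars are ± 1 SD. Muc1 runs from 4.84 to 5.10 in WT and from 5.61 to 8.42 in Mll3-null arrays, Muc15 is widely spread in both groups, and the groups of Muc4, Muc13 and Muc16 overlap. Levels of different genes come from different probe sets and are not comparable.

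Muc1, whose product bears a signalling tail inside the cell besides its sugar-coated outer part, was the only one of the 5 measured members without overlap between the groups, an order found in 5.44% of all genes. In replicate order the WT arrays read 4.84, 5.10 and 4.94, whereas the Mll3-null arrays read 5.61, 7.18 and 8.42. The WT arrays lay within 0.26 log2 units of each other, and the Mll3-null arrays spread over 2.80. Against the WT mean, Mll3-null replicate 1 was 1.58-fold higher, replicate 2 was 4.66-fold higher and replicate 3 was 11.0-fold higher. The WT values of Muc1 were not far above the array medians of 4.35 to 4.40, so these folds start from a low signal. The groups averaged 4.96 ± 0.13 and 7.07 ± 1.40 (log2, mean ± SD, n = 3 each), a difference of 2.11 ± 0.64 (SE) or 4.32-fold. Only 9 of the 22180 genes had a larger mean difference, and 0.532% were at least 2-fold higher. Muc1 did not pass the correction over all genes, where its adjusted p was 0.84 (limma). The size of the difference followed single arrays. It was 1.44 without Mll3-null replicate 3, the array that stood apart, and 2.84 without Mll3-null replicate 1, the lowest of its group.

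The difference of Muc1 was not seen in Muc4, Muc13 or Muc16. Muc4, whose product pairs with the receptor tyrosine kinase ErbB2, was at 4.53, 4.46 and 4.28 in WT and 4.47, 4.43 and 4.43 in Mll3-null replicates 1 to 3, so the Mll3-null arrays fell inside the WT range. The Muc4 difference was 0.02 ± 0.09 (log2, SE), with a 95% interval from -0.21 to 0.25. Muc13, a mucin with EGF-like domains known mainly from the gut, was at 3.81, 3.85 and 4.0 in WT and 3.71, 4.05 and 3.89 in Mll3-null arrays. Replicates 1 and 2 of the Mll3-null group bracketed all WT arrays of Muc13, and the interval of the difference ran from -0.28 to 0.28. Muc16, the source of the ovarian tumour antigen CA125, was at 2.69, 2.78 and 2.54 in WT and 2.80, 2.49 and 2.86 in Mll3-null arrays. The Muc16 groups overlapped, and the difference lay between -0.26 and 0.35. These intervals exclude a shift of the size of Muc1 in each of the 3 genes as far as a probe set of low signal can show one. No detection values were used, so whether these 3 mRNAs were present at all cannot be told from the arrays. Mean values of Muc13 (3.88) and Muc16 (2.69) were below 4, the limit used here for a dim gene, and Muc4 (4.43) was close to the array median.

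Muc15 was bright and varied widely from array to array inside both groups, and the groups overlapped. The WT arrays read 9.93, 7.96 and 9.52 and the Mll3-null arrays 8.08, 11.19 and 9.99, in replicate order. Mll3-null replicates 2 and 3 were the highest of the 6 arrays and Mll3-null replicate 1 was below 2 of the 3 WT arrays. The group means were 9.14 ± 1.04 and 9.76 ± 1.57 (SD, n = 3 each), and the difference of 0.62 ± 0.85 (SE) had a 95% interval of -1.43 to 2.67, with an adjusted p of 0.89 (limma). That interval is wide enough to hold a difference as large as that of Muc1. Without WT replicate 2 the Muc15 difference was 0.03, and without Mll3-null replicate 2 it was -0.10. The spread inside the groups set Muc15 apart from most genes as a plain description. Its WT range of 1.97 was exceeded by 0.424% of genes and its Mll3-null range of 3.11 by 0.600%. The Mll3-null range of Muc1 was exceeded by 0.834% of genes, while 49.0% had a wider WT range than Muc1.

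Muc1 and Muc15, the members with the widest spread, were set side by side on the Mll3-null arrays, each against its own WT mean. In Mll3-null replicate 1 Muc1 was above its WT mean by 0.66 while Muc15 was below its own by 1.05 (-1.05). In Mll3-null replicate 2 both were above, by 2.22 for Muc1 and 2.06 for Muc15. In Mll3-null replicate 3 the values were 3.46 for Muc1 and 0.85 for Muc15. Among the Mll3-null arrays, the pair thus parted in direction from the WT means only in replicate 1. Within the WT group Muc1 was lowest and Muc15 highest on replicate 1, and the reverse held on replicate 2. Both were above all their WT arrays in Mll3-null replicates 2 and 3. In replicate 3 Muc15 was only just so, at 9.99 against a highest WT value of 9.93.

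Further mucin genes, secreted ones and others including the membrane-anchored Muc3 and Muc3a, differed by at most 0.26 upward. Of 18 such genes 13 were measured, 10 higher and 3 lower by mean, a median of 0.03 and none called. The smallest unadjusted p in that list belonged to Muc19, a gel-forming mucin of salivary glands, at 4.11 ± 0.11 in WT against 4.37 ± 0.22 in Mll3-null cells, and to Muc2, the main gel-forming mucin of the intestine, at 5.12 ± 0.08 against 5.27 ± 0.08 (SD, n = 3 each). Muc3a (named after its values were seen) was the only gene of the 13 without overlap, an order found upward in 5.44% of all genes, at 3.81, 4.13 and 4.13 in WT and 4.16, 4.18 and 4.22 in Mll3-null arrays. The widest difference in the list was that of Cd34, a sialomucin of stem and progenitor cells (named after its values were seen), with 9.66, 8.62 and 9.16 in WT and 9.89, 8.37 and 4.17 in Mll3-null arrays. The low value of Cd34 was on Mll3-null replicate 3 alone, where Muc1 was highest.

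The enzymes that build O-linked chains on mucins were examined next. Of the 19 measured transferases that attach the first sugar, 13 were higher and 6 lower by mean, with a median of 0.07 and none called. Galnt7 was at 7.58 ± 0.15 in WT against 8.04 ± 0.44 in Mll3-null cells, and Galnt2 at 9.36 ± 0.14 against 9.12 ± 0.23. Galnt6 (named after its values were seen) read 6.40, 7.32 and 5.94 in WT and 6.70, 5.49 and 4.63 in Mll3-null arrays, with the lowest value on Mll3-null replicate 3. Galnt10, the widest difference upward (also named after its values were seen), read 7.10, 6.97 and 7.18 in WT and 6.72, 7.51 and 8.49 in Mll3-null arrays, with the highest value on that same array. Of the 14 enzymes that lengthen, branch or cap the chains, 7 were higher and 7 lower by mean. Their median of 0.05 was -0.069 among genes with a mean of at least 4 and -0.0035 without WT replicate 2. Here St6galnac4, a sialyltransferase, differed by 0.52 ± 0.20 and St3gal1, another sialyltransferase that caps the core chain, by 0.42 ± 0.21 (log2, SE), neither called. St6galnac4 read 5.69, 5.08 and 5.47 in WT against 5.65, 6.16 and 5.98, so that Mll3-null replicate 1 fell inside the WT range.

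Proteases that shed mucins from the surface were lower by mean in 4 of 6 genes (median -0.05, from -0.12 to -0.00045 without single arrays), none called. Mmp14, a membrane-anchored metalloproteinase, was at 10.99 ± 0.11 in WT against 10.78 ± 0.22 in Mll3-null cells, and Adam8 at 6.56 ± 0.57 against 5.65 ± 1.21. Among 17 genes whose products bind or signal with mucins, 12 were lower and 5 higher by mean (median -0.16, or -0.096 without Mll3-null replicate 3 and -0.11 without WT replicate 2). Of the 17, 2 lay below all WT arrays, as did 5.31% of all genes, and none was called. The scaffold gene Slc9a3r1, whose product links membrane proteins to ezrin, was at 9.20 ± 0.07 in WT against 9.04 ± 0.03 in Mll3-null cells, and Msn, moesin, at 11.57 ± 0.12 against 11.03 ± 0.57. Erbb2, the partner of Muc4, differed by -0.18 ± 0.16, and Msln, mesothelin, which binds Muc16, by -0.98 ± 0.57 (both named after their values were seen). WT replicate 2 alone held Msln at 7.13, against 4.73 to 5.38 in the other WT arrays.

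**Figure D2:**
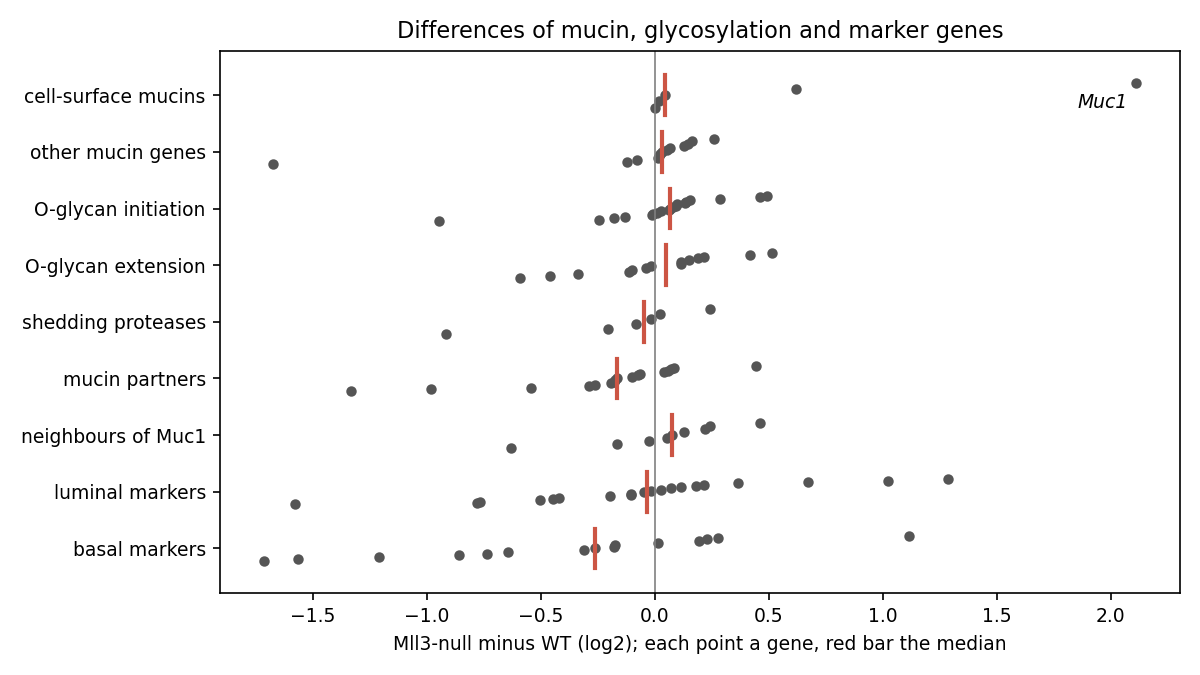
Mll3-null minus WT differences (log2, horizontal axis) for the cell-surface mucins and 8 companion gene lists. Each point is a gene and each red bar the median of its list. The medians run from -0.26 for basal markers to 0.08 for the neighbours of Muc1, and Muc1 itself at 2.11 lies beyond all other points shown.

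The chromosomal surroundings of Muc1 on chromosome 3 were compared with it. Of 10 listed neighbours 9 had a value, 6 higher and 3 lower by mean (median 0.08, or 0.030 without Mll3-null replicate 3). Efna1, an ephrin ligand gene, lay at 7.99 ± 0.11 in WT against 8.21 ± 0.09 in Mll3-null cells and Krtcap2, a subunit of the oligosaccharyltransferase, at 8.79 ± 0.07 against 9.03 ± 0.18, both above all WT arrays. Mtx1, a mitochondrial import gene (named after its values were seen), lay below all WT arrays, at 6.94, 6.95 and 6.99 in WT against 6.90, 6.73 and 6.74. Over all genes 5.44% lay above and 5.31% below in this way, and no neighbour was called. Trim46, the next gene after Muc1 and transcribed toward it (named after its values were seen), read 5.11, 4.93 and 5.01 in WT and 4.93, 5.59 and 5.92 in Mll3-null arrays. Trim46 was thus above WT in Mll3-null replicates 2 and 3 and not in replicate 1, whereas Thbs3, the protein-coding gene on the other side, differed by -0.02 ± 0.13. The 434 genes of chromosome 3 with a mean above 6 had a median within 0.02 of their 6-array median on every array but WT replicate 3, where it was 0.05.

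Profiles across the 6 arrays were compared with that of Muc1 after each gene was centred on its own mean. Likeness was the root mean square gap in log2 units, over the 8752 genes with a mean of at least 6. The nearest was Clic6, of the chloride intracellular channel family, with a gap of 0.29. Clic6 read 6.19, 5.57 and 5.92 in WT and 6.19, 7.92 and 9.23 in Mll3-null arrays, high in the same 2 arrays as Muc1. The next were Lyplal1 (gap 0.48), Pea15a (0.49), Myo7a, an unconventional myosin (0.51), Rap1gap, which switches off the GTPase Rap1 (0.51), and Nos1ap (0.52). All of these 6 were highest on Mll3-null replicate 3 and second highest on replicate 2, which follows from their choice by likeness to Muc1. Of the 6, 3 lie on chromosome 1, namely Lyplal1, Pea15a and Nos1ap. The 510 genes of chromosome 1 with a mean above 6 had a median 0.30 above their 6-array median on Mll3-null replicate 3 and 0.09 above on replicate 2, against -0.01 on both arrays for chromosome 3, where Muc1 lies. Muc15, the only other measured member of the group with a mean of at least 6, had a gap of 1.23.

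The same search around Muc15, added after its values were seen, gave Tspan15 (gap 0.40), Car2, carbonic anhydrase 2 (0.41), Kit, the receptor tyrosine kinase that marks luminal progenitors (0.42), Ceacam1, a cell adhesion molecule (0.43), Pde9a (0.46) and Agps (0.48). Kit read 6.78, 5.38 and 6.83 in WT and 5.92, 8.76 and 8.16 in Mll3-null arrays. Each of the 6 was low on WT replicate 2 and Mll3-null replicate 1, as Muc15 was, which follows from their choice by likeness. None of these 6 was called between the groups.

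**Figure D3:**
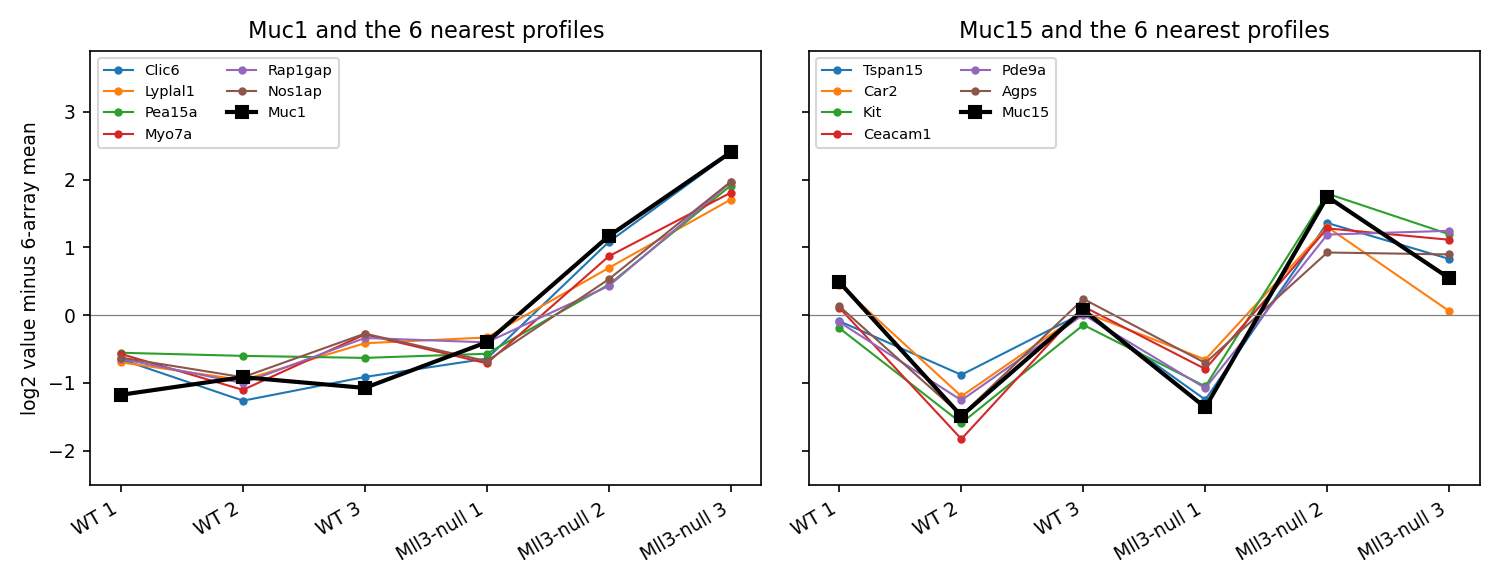
Log2 value minus the gene's 6-array mean (vertical axis) on each of the 6 arrays, for Muc1 (left) and Muc15 (right) in black with their 6 nearest profiles. Lines only join the points of a gene. Muc1 lies at 2.40 on Mll3-null replicate 3 and 1.17 on replicate 2, while Muc15 is lowest on WT replicate 2 (-1.49) and Mll3-null replicate 1 (-1.36).

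Muc1 is also used as a mark of luminal cells, so markers of both epithelial layers were read beside it. The sums of the 20 measured luminal markers overlapped between the groups, with summed linear values of 11557 to 12794 in WT and 10760 to 12301 in Mll3-null arrays, 9 higher and 11 lower by mean, and none called. Their median of -0.03 was 0.082 without Mll3-null replicate 2 and 0.052 without WT replicate 3. Of the most abundant, Krt18 was at 10.93 ± 0.11 in WT against 11.10 ± 0.29 in Mll3-null cells and Epcam at 10.85 ± 0.11 against 10.83 ± 0.11. The smallest p were those of Cldn4, a tight junction gene, at 8.80 ± 0.53 against 7.23 ± 0.68, and Elf3, an epithelial transcription factor, at 5.68 ± 0.11 against 6.35 ± 0.68. Elf3 read 5.60, 6.54 and 6.92 in Mll3-null replicates 1 to 3, in the same order as Muc1. Unlike Muc1, Elf3 was inside its WT range of 5.56 to 5.76 on replicate 1. The widest upward differences were Kit (1.29 ± 0.78) and Elf5 (1.02 ± 0.71, log2, SE). In Mll3-null replicates 1 to 3 Kit read 5.92, 8.76 and 8.16 and Elf5 6.59, 8.51 and 9.02. Both were inside the WT range on replicate 1. Downward, Prom1 (-0.78 ± 0.58) and Krt7 (-0.77 ± 0.38) came after Cldn4. These genes were named after their values were seen. The sums above weigh the brightest markers most.

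The sum of the 15 measured basal markers was low on 1 array. Their summed linear values were 14795 to 18575 in WT, 18706 on Mll3-null replicate 1 and 17168 on replicate 2, but 6644 on Mll3-null replicate 3, where Muc1 was highest. Krt14, the basal keratin, was at 6.65 on that array and between 11.74 and 12.43 on the other 5. Not all 15 followed, since Itga6 (11.22) and Oxtr, the oxytocin receptor gene (8.35, named after its values were seen), were highest on that array. Of the 15, 5 were higher and 10 lower by mean (median -0.26), which became 0.18 without Mll3-null replicate 3, and none was called. The integrin genes Itga6, at 10.78 ± 0.09 in WT against 11.06 ± 0.14 in Mll3-null cells, and Itgb1, at 11.34 ± 0.07 against 11.16 ± 0.14, had the smallest p. In bulk samples fewer cells of a type and less RNA per cell cannot be told apart. On Mll3-null replicates 1 and 2 the basal sum was in or just above the WT range. Muc1 read 5.61 and 7.18 there, against at most 5.10 in WT. The part of the basal markers in the level of Muc1 was not tested on any array.

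Markers of cells from outside the epithelium were read too, and none was called. The genes over the dim limit of 4 numbered, by array, 4 to 5 of 8 for fibroblast, 2 to 4 of 7 for endothelial, 2 of 8 for immune and 3 to 4 of 5 for adipocyte markers. Over the 8 fibroblast, 7 endothelial, 8 immune and 5 adipocyte genes measured, the medians of the differences were 0.06, 0.01, 0.02 and -0.05. Summed linear values were 158 to 179 in WT and 159 to 217 in Mll3-null arrays for fibroblast, 109 to 117 and 110 to 126 for endothelial, 120 to 132 and 113 to 135 for immune, and 85 to 98 and 82 to 95 for adipocyte genes. The brightest were Col1a1 (5.54) and Pdgfra (5.32), Pecam1 (4.74) and Kdr (4.26), Cd68 (5.35) and Csf1r (4.17), and Plin1 (4.45) and Plin4 (4.37), as means over all 6 arrays. The smallest p in each list belonged to Fap (-0.12 ± 0.09) and Col1a2 (0.17 ± 0.14), Esam (0.15 ± 0.11) and Tek (-0.06 ± 0.15), Csf1r (0.05 ± 0.11) and Cd68 (-0.10 ± 0.21), and Plin1 (0.29 ± 0.14) and Lep (-0.11 ± 0.08), as log2 differences with SE.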

How the data were processed

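Total RNA of 3 WT and 3 Mll3-null organoid samples was hybridised to single-channel Affymetrix arrays, per the labels' protocols. Per the submitters' processing notes the authors used Affymetrix Expression Console. The version, the normalization and the build are not known here. From their range, the deposited values were read as log2 expression, with nearly equal quartiles on all arrays. The 6 columns carry the samples' own identifiers, and 0 columns of other samples were present.

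Of 41345 probe sets, 23521 carried exactly 1 symbol in the platform annotation and 1814 several. Where a gene had several (1082 genes), the brightest by mean was kept, leaving 22180 genes. Genotype was the only term of a two-sided test in limma 3.58.1 under R 4.3.3 (eBayes after lmFit), Benjamini-Hochberg adjusted over all genes, threshold 0.05. The script was tested on simulated data.

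The members, the 12 companion lists, the tests and the naming rule were chosen with earlier results of these data known. The rule named the members, the 2 genes of smallest p in each list, the 2 brightest markers of each cell type and the 6 profiles nearest to Muc1. Of 155 listed genes 145 had a value, 1 through an older symbol. Chromosomes came from the GRCm38.p6 RefSeq table for 99.2% of genes. Both groups use the same replicate numbers, which no label explains, so no block was used.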

Additional observations from a re-analysis of the deposited data

How the results depend on the processing

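The difference of Muc1 kept its direction under all 16 alternatives, from 1.38 to 2.84 log2 units, and was not called in any (limma adjusted p from 0.13 to 0.995). Leaving out single arrays gave 1.44 to 2.84, and dropping both Mll3-null replicate 3 and WT replicate 1, an alternative added after seeing the data, gave 1.38. Muc15 ran from -0.10 (without Mll3-null replicate 2) to 1.46 without single arrays, and was 1.26 with array weights. The near-zero differences of Muc4, Muc13 and Muc16 changed sign. Muc4 was -0.0025 with median centring and ran from -0.051 to 0.075 without single arrays or that pair. Muc13 was 0.088 with array weights and ran from -0.082 to 0.085 without single arrays. Muc16 was -0.073 with array weights, -0.019 without that pair of arrays, and from -0.027 to 0.16 without single arrays. The cause of these changes was not tested. No gene was called under any of the 16 alternatives. Over the alternatives, list medians ran from -0.069 to 0.094 for O-glycan extension, -0.010 to 0.11 for the neighbours of Muc1, -0.13 to 0.082 for luminal and -0.43 to 0.18 for basal markers, -0.038 to 0.13 for fibroblast, -0.043 to 0.086 for endothelial, -0.024 to 0.059 for immune and -0.12 to 0.069 for adipocyte markers, all with a change of sign. The medians of the other mucin genes, O-glycan initiation, shedding proteases and mucin partners kept theirs.

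The count of genes with non-overlapping groups, 2383 in the fit of the report, was 4364 over all probe sets, where more features are tested, 3966 to 6603 without single arrays and 7042 without the 2 arrays named above, where fewer arrays make separation easier. Genes at an unadjusted p under 0.05, 1093 of 22180 in the report, were 2504 with array weights and 716 to 2742 without single arrays. The lowest of these was without Mll3-null replicate 2 and the highest without replicate 1. Among genes with a mean of at least 4, where fewer features are tested, the count was 721. Over all 41345 probe sets, where more are tested, it was 2075. The last counts alone do not show a changed share. Genes at least 2-fold higher, 118 in the report, were 61 without Mll3-null replicate 3 and 294 without replicate 1. With the replicate number as a block the Muc1 difference was 2.11 ± 0.52 (adjusted p = 0.76, limma) and 0 genes were called. Deviations of same-numbered arrays correlated at 0.03, 0.08 and 0.31 across genes, and 2 of 3 arrays in each group correlated best with their own number. These values do not settle whether the numbers mark pairs. No label explains the numbers, so the fit of the report did not take them as pairs. Signals under the dim limit of 4 (Muc13 and Muc16) or near the array median (Muc4) limit what can be said of these mucins.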

Other observations

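Muc1 and Muc15 are parts of the membrane around milk fat globules, so some other genes of that membrane were read as well. The list was chosen after the mucin values were seen and was given no test. Of its 6 genes 5 were higher and 1 lower by mean in Mll3-null cells (median 0.31), and none was called by limma. Plin2, which coats lipid droplets, read 9.46, 9.49 and 9.51 in WT replicates 1 to 3 and 9.26, 10.39 and 11.35 in Mll3-null replicates 1 to 3. The Plin2 order within the Mll3-null group was that of Muc1, but its Mll3-null replicate 1 lay below all WT arrays. Mfge8, the milk fat globule protein that bridges dying cells and phagocytes, read 11.88, 11.62 and 12.16 in WT and 11.60, 12.21 and 12.78 in Mll3-null arrays. Xdh, xanthine dehydrogenase, was at 7.87 ± 0.37 in WT against 8.21 ± 0.19 in Mll3-null cells and Btn1a1, butyrophilin, at 4.67 ± 0.20 against 4.97 ± 0.34 (log2, SD, n = 3 each), both overlapping. Cd36, a fatty acid transporter, was dim at 2.93 ± 0.03 against 3.13 ± 0.15. Fabp3, a fatty acid binding protein, was lower on all Mll3-null arrays, at 10.08 ± 0.04 against 9.89 ± 0.19, where 5.31% of all genes lay lower without overlap. The mean of the 6 genes, centred on their 6-array means, was -0.24 on Mll3-null replicate 1, 0.27 on replicate 2 and 0.43 on replicate 3, against -0.21 to -0.10 in WT. On replicate 3 this mean rested most on Plin2, at 11.35 against its 6-array mean of 9.91. Fabp3 alone of the 6 was below its 6-array mean there, at 9.68 against 9.99.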
